A study of Mus musculus with 10 samples.

Results

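The Zfp genes are the mouse genes named zinc finger protein followed by a number. They were selected on their symbol and their level in a table of transcripts of mouse embryonic fibroblasts (MEFs): a mean of at least 2 RPKM over all 10 libraries. RPKM counts reads relative to the length of the transcript and the depth of the library. Of 23370 named genes in the table, 333 had such a symbol and 199 of these reached the floor, each represented by its transcript of highest mean RPKM. The floor chose genes by their level, so levels are given below as a description, and tests concern differences between libraries.

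The cells were primary connective tissue cells grown from embryos of C57BL/6 mice. In all of them, controls included, the H3f3b locus had been exchanged for an H3.3-HA cDNA, which encodes a tagged form of that locus's histone. Cells of a naive and of a pretreated arm were sampled at 0, 1, 2, 4 and 6 h, with 1 library of RNA per arm and time. The stimulus was IFN-β, the interferon that infected cells secrete, with a dose of 100 U/ml named for all samples. The sources used here do not give how much of it the pretreated cells had received, for how long, or whether it was washed out. Hours are taken here to count from the addition of IFN-β. No library is labelled as untreated at 1 to 6 h, so effects of IFN-β and of time in culture cannot be told apart. Because no arm and time had a second library, the p-values below measure spread over time points and arms, not over cultures.

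Zinc fingers are small protein folds held by a zinc ion, and most Zfp proteins carry a row of them in the C2H2 form, named after the cysteines and histidines that hold the zinc, which reads DNA sequence. Many also start with a KRAB box, a domain that recruits the corepressor Trim28, which in turn brings histone methyltransferases and silences the bound site. KRAB zinc finger genes lie in clusters that arose by duplication and are best known for silencing retrotransposons and for keeping imprinted marks. Zfp genes without the box include activators, ubiquitin ligases and RNA-binding proteins.

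Total counts ranged from 83.9 M to 151.3 M (M, mega) in the libraries of 0, 1 and 2 h and from 241.4 M to 268.5 M in those of 4 and 6 h, so later libraries were the deepest in both arms. From 0.57% to 0.629% of counts fell on the Zfp genes, and no Zfp gene had a count under 152. Counts of Rn45s, the ribosomal RNA precursor, were 3.895% at 0 h and 2.849% at 1 h of the pretreated arm, and 0.974% to 1.512% elsewhere. All 10 fibroblast markers were present, with a summed level of 13303 to 17033 RPKM in the naive and 11341 to 15134 RPKM in the pretreated libraries. Of 4 macrophage markers 3 (Csf1r, Ptprc and Itgam) stayed under 0.5 RPKM in every library, as did 3 of 4 of epithelium (Epcam, Krt8 and Krt18), 2 of 4 of endothelium and 3 of 4 of muscle. The 4 neural markers summed to 14.66 to 39.59 RPKM.

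Most Zfp genes were expressed at a low level. Of the 199, 95 had a mean of 2 to 5 RPKM, 104 reached 5 RPKM and 43 reached 10 RPKM, and all passed the filter for testing (at least 1 RPKM in at least 2 libraries). Just inside the floor were Zfp933 with a mean of 2.04, Zfp747 with 2.02 and Zfp691 with 2.01 RPKM, and just outside were Zfp595 with 1.995, Zfp870 with 1.95 and Zfp606 with 1.95 RPKM. The highest level belonged to Zfp207, which encodes a spindle and kinetochore protein. It stood at 145, 127, 137, 133 and 149 RPKM in the naive libraries from 0 to 6 h and at 143, 118, 139, 130 and 145 RPKM in the pretreated ones, with no library apart from the rest. Next by mean level came Zfp703 (48.6 RPKM), a transcriptional corepressor, Zfp637 (31.9 RPKM), Zfp521, a regulator of mesenchymal and neural cell fate, Zfp91, a ubiquitin ligase, and Zfp106, an RNA-binding protein. The most even gene was Zfp740, between 17.998 and 19.6 RPKM in all 10 libraries. Over the whole group the range across the libraries on log2(RPKM + 1) was widest for Zfp296 at 2.27, followed by Zfp324, Zfp703, Zfp945, Zfp36 and Zfp395.

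The course after IFN-β was asked first, with the mean of 2, 4 and 6 h set against 0 h over both arms. Of the 199 Zfp genes, 40 rose (20.1%) and 37 fell (18.6%), with adjusted p under 0.05 by edgeR's quasi-likelihood test. Among all 12168 tested genes 19.9% rose and 20% fell, so neither share of the Zfp genes lay far from the background. Their median log2 difference was 0.05, against -0.01 for all genes.

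Zfp296, a zinc finger gene of pluripotent cells, had the largest rise. Its level was 1.06, 1.91, 4.29, 5.09 and 4.91 RPKM in the naive libraries from 0 to 6 h and 1.93, 5.46, 8.97, 3.68 and 3.88 RPKM in the pretreated ones. All libraries of 2 to 6 h lay above both 0 h libraries, and the pretreated course was highest at 2 h while the naive one was highest at 4 h. The log2 difference was 1.88 (SE 0.459, edgeR adjusted p = 0.0186). The gene lies on chromosome 7 at 19577287 to 19580656 of mm10. Zfp324, a KRAB gene at 12965864 to 12973822 of the same chromosome, went from 3.48 and 3.38 RPKM at 0 and 1 h to 8.94, 12.1 and 9.58 RPKM in naive cells. In pretreated cells it went from 3.15 and 4.19 to 10.6, 8.66 and 6.11 RPKM. Every library of 2 to 6 h was thus above every earlier one in both arms, and the gene rose (log2 difference 1.55, SE 0.227, edgeR adjusted p = 0.00552).

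Zfp281, a DNA-binding regulator of pluripotency genes on chromosome 1 at 136624901 to 136630391, was the most abundant of the strong risers. It stood at 7.60, 11.7, 17.4, 16.0 and 16.8 RPKM in naive and at 9.74, 14.1, 18.6, 20.3 and 18.02 RPKM in pretreated cells. Here the 1 h libraries were already above both 0 h libraries, and the later ones were above those (log2 difference 1.12, SE 0.0971, edgeR adjusted p = 0.00498). Zfp945, a KRAB gene, went from 2.02 and 2.27 RPKM at 0 and 1 h to 5.32, 4.37 and 4.83 RPKM in naive cells, and from 1.86 and 2.92 to 7.14, 4.16 and 4.01 RPKM in pretreated cells. It was highest at 2 h in both arms, and its log2 difference was 1.41 (SE 0.176, edgeR adjusted p = 0.005). Zfp935, Zfp758, Zfp943 and Zfp160 completed the 8 largest rises, with log2 differences of 1.06, 1.02, 0.99 and 0.97. The remaining risers lay between 0.33 for Zfp513, named after its value was seen, and 0.94 for Zfp820.

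**Figure D1:**
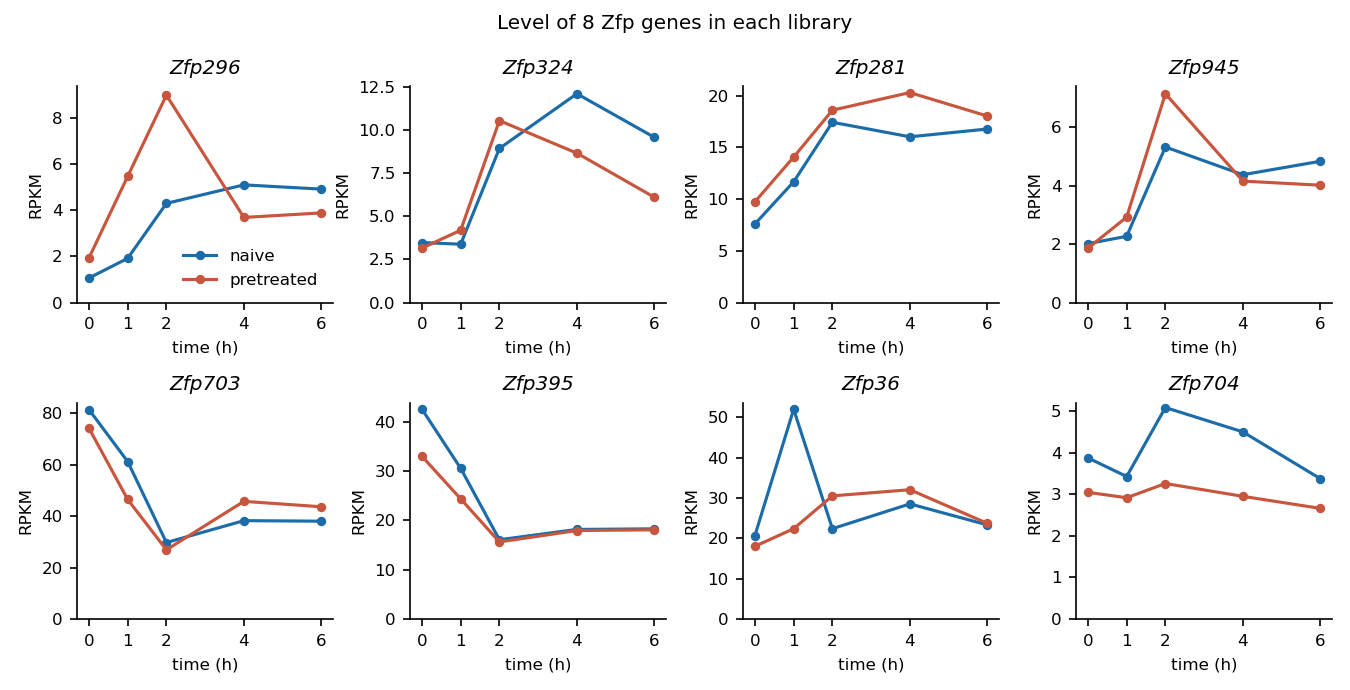
Level in RPKM (vertical axes from 0, scaled separately) against time in hours for 8 Zfp genes, with 1 library per point, naive arm in blue and pretreated arm in red. Zfp296, Zfp324, Zfp281 and Zfp945 were higher at 2 to 6 h than at 0 h, Zfp703 and Zfp395 were lower, Zfp36 stood out in the naive 1 h library, and Zfp704 was lower in the pretreated library at each time.

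Among the genes that fell were several of the most abundant ones. Zfp395, a DNA-binding protein, went from 42.6 and 30.6 RPKM at 0 and 1 h to 16.1, 18.2 and 18.3 RPKM in naive cells and from 33.0 and 24.4 to 15.6, 17.96 and 18.1 RPKM in pretreated cells. All 6 libraries of 2 to 6 h lay below all 4 earlier ones (log2 difference -1.05, SE 0.0959, edgeR adjusted p = 0.00498; chromosome 14, 65358676 to 65398930). Zfp703, on chromosome 8 at 26977336 to 26981462, stood at 81.5, 61.2, 29.8, 38.3 and 38.1 RPKM in naive and at 74.2, 46.5, 26.9, 45.8 and 43.6 RPKM in pretreated cells. It was lowest at 2 h in both arms, and the log2 difference was -1.02 (SE 0.124, edgeR adjusted p = 0.00498).

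Zfp41, Zfp524, Zfp526, Zfp553, Zfp64 and Zfp358 fell by 0.83, 0.78, 0.78, 0.76, 0.69 and 0.68 on the log2 scale. Zfp553 was already low at 1 h, with 9.33 RPKM at 0 h and 5.43, 4.98, 5.23 and 5.72 RPKM later in naive cells, and 9.24 RPKM at 0 h and 5.43, 3.97, 5.65 and 6.19 RPKM later in pretreated cells. No other library reached either 0 h level. Zfp637 fell by 0.60 and Zfp598, the ubiquitin ligase that senses collided ribosomes, by 0.52. Zfp598 stood at 24.9, 24.8, 18.1, 16.3 and 14.2 RPKM in naive and at 27.2, 20.6, 18.1, 18.5 and 19.3 RPKM in pretreated cells. In these data, less RNA of a gene per cell and fewer cells that express it cannot be told apart.

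These calls rest on the 0 h libraries. Without the naive 0 h library 0% of the Zfp genes passed in either direction, and among all genes only 5 rose and 3 fell. Leaving out the 0 h library of the pretreated arm gave 5.53% rises and 8.54% falls, against 9.82% and 7.23% of all tested genes. Without the naive 6 h library 12.1% rose and 12.1% fell, against 14.1% and 12.4% of all tested genes.

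**Figure D2:**
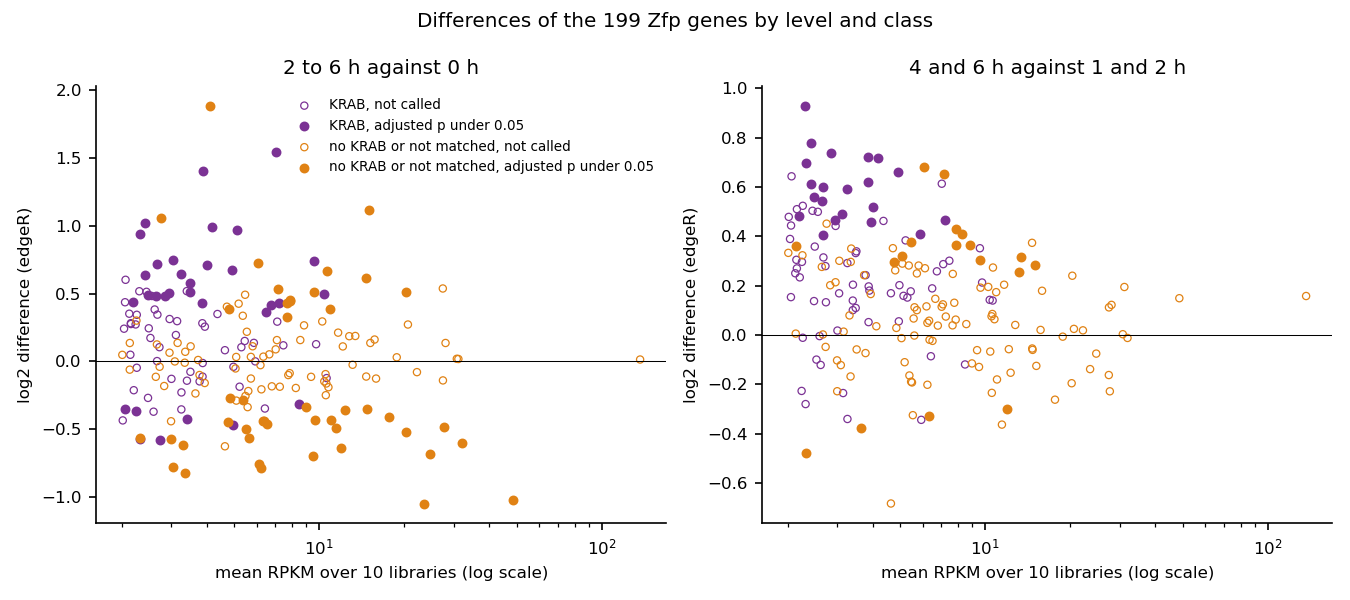
Log2 difference from the edgeR fit against mean RPKM over the 10 libraries (log axis) for the 199 Zfp genes, for 2 to 6 h against 0 h (left) and for 4 and 6 h against 1 and 2 h (right). Purple circles are KRAB genes and orange circles are the others, filled where adjusted p was under 0.05. In the right panel 35 filled circles lie above 0 and 4 below.

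Proteins encoded by the Zfp genes were then sorted by conserved motifs in the longest reading frame of their GENCODE transcripts. A KRAB box together with C2H2 fingers was found in 82 genes, with a median of 12 fingers and a median level of 3.19 RPKM. No KRAB box was found in 116 genes, with a median of 7 fingers and a median level of 7.05 RPKM. Of these, 75 had 5 or more C2H2 fingers, 33 had 1 to 4, and 8 (Zfp36, Zfp259, Zfp330, Zfp365, Zfp503, Zfp703, Zfp781 and Zfp839) had no match to the C2H2 pattern. Zfp862 could not be matched to a reading frame. The KRAB box was searched with a fixed pattern of residues, which can miss a divergent box. Genes without a KRAB box are, here and below, those without a match to that pattern. Median levels differed between the classes, so the counts of both comparisons are also split by level.

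The classes differed in direction at 2 to 6 h against 0 h. Over all tested genes 19.9% rose and 20% fell. Of the 82 KRAB genes 25 rose (30.5%) and 7 fell (8.54%), with a median log2 difference of 0.28. Among the 116 genes without a KRAB box 15 rose (12.9%) and 30 fell (25.9%), with a median of -0.06. At a mean of 5 RPKM or more, 7 of 18 KRAB genes rose and 1 fell, against 12 of 86 that rose and 23 that fell without the box. At a mean under 5 RPKM, 18 of 64 KRAB genes rose and 6 fell, against 3 of 30 that rose and 7 that fell without it. Of the tested genes outside the group, 17.9% rose and 18.5% fell at 2 to 5 RPKM. The shares were 21.5% and 17.9% at 5 to 10 RPKM, and 21% and 22.9% at 10 RPKM or more. The largest fallers of the KRAB class were Zfp7 at -0.58 and Zfp13 at -0.57, named after their values were seen. Among genes without KRAB, those with 1 to 4 fingers had 2 risers and 10 fallers of 33. These are counts, and the difference between the classes was not tested. They rest on the 0 h libraries: without that of the naive arm 0% of the Zfp genes passed in either direction.

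Level by level, KRAB transcripts were the smaller part of the Zfp total. Their summed level was 309.5, 258.1, 330.4, 326.3 and 366.2 RPKM in the naive libraries from 0 to 6 h and 294.3, 311.8, 311.6, 336.5 and 364.1 RPKM in the pretreated ones. The sum was highest at 6 h in both arms, and the naive 1 h library was the lowest of the 10. The genes without KRAB summed to 1392.8, 1324.7, 1183.1, 1207.5 and 1220.2 RPKM in naive and 1345.7, 1260.7, 1179.8, 1230.1 and 1262.7 RPKM in pretreated cells, with the 0 h libraries highest and the 2 h libraries lowest. Of the 82 KRAB genes, 67.1% were above their own 0 h level at 6 h in naive and 78.0% in pretreated cells. Over all tested genes the same shares were 43.4% and 46.7%.

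**Figure D3:**
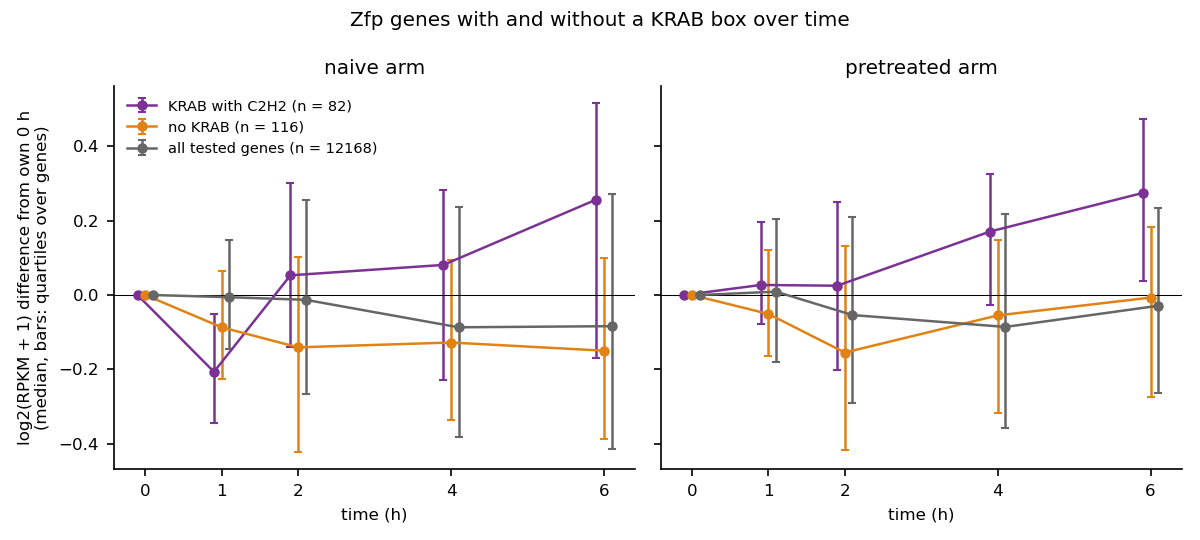
Median difference in log2(RPKM + 1) from the 0 h library of the same arm against time in hours, for 82 KRAB genes, 116 Zfp genes without KRAB and all 12168 tested genes. Bars are the quartiles over genes, not an error of the median. At 6 h the KRAB median was 0.26 in naive and 0.28 in pretreated cells, and at 1 h it was -0.21 and 0.03.

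A comparison of the late with the early times after IFN-β, 4 and 6 h against 1 and 2 h, does not use the 0 h libraries. By edgeR's test 35 Zfp genes rose (17.6%) and 4 fell (2.01%), while 9.74% of all tested genes rose and 9.49% fell. The median log2 difference was 0.17 for the Zfp genes and 0.00 for all genes. KRAB genes accounted for 21 of the rises and 0 of the falls (median 0.29), and genes without KRAB for 14 rises and 3 falls (median 0.07). Under 5 RPKM, 19 of 64 KRAB genes rose late (29.7%) against 2 of 30 without KRAB (6.67%). At 5 RPKM or more the order was the other way, with 2 of 18 KRAB genes (11.1%) and 12 of 86 without KRAB (14%). The higher share of called late rises among KRAB genes was thus seen only under 5 RPKM. Their median log2 difference was the higher one at both levels. It was 0.324 against 0.123 without KRAB under 5 RPKM, and 0.201 against 0.064 at 5 RPKM or more. Of the 40 genes that rose against 0 h, 21 also rose here, which is 52.5% of that list and 60% of this one.

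At matched levels the shares stayed uneven. Between 2 and 5 RPKM, 22.1% of the Zfp genes rose and 2.11% fell, against 9.36% and 8.62% of other genes. Between 5 and 10 RPKM it was 18% and 1.64% against 9.06% and 9.81%. At 10 RPKM or more, 6.98% rose and 2.33% fell, against 10.1% and 10.6% of other genes, so the higher share of rises was not seen at that level. The 4 and 6 h libraries had the greatest depth, and the part of depth in the result was not tested.

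Zfp677, a KRAB gene, had the largest late rise. It stood at 2.16, 0.984, 2.08, 2.51 and 3.66 RPKM in naive and at 1.76, 1.65, 2.14, 2.55 and 3.58 RPKM in pretreated cells, lowest at 1 h and highest at 6 h in both arms (log2 difference 0.93, SE 0.172, edgeR adjusted p = 0.0182). Zfp51 had the same order of times in naive cells, with 3.96, 2.41, 3.24, 4.01 and 5.01 RPKM, and in pretreated cells stood at 3.39, 2.74, 3.73, 4.39 and 5.68 RPKM. All 4 of its late libraries lay above all 4 early ones (log2 difference 0.72, SE 0.105, edgeR adjusted p = 0.0119). Zfp800 had no match to the KRAB pattern. Its naive level went from 3.54 and 5.65 RPKM at 1 and 2 h to 7.38 and 7.53 RPKM at 4 and 6 h. In pretreated cells it went from 4.55 and 6.98 to 7.93 and 8.02 RPKM. Its late libraries were also all above its early ones, and it had the smallest adjusted p of the group (log2 difference 0.68, SE 0.0836, edgeR adjusted p = 0.0095). Zfp758, Zfp715, Zfp943, Zfp820 and Zfp942, all KRAB genes, rose by log2 differences of 0.78, 0.74, 0.72, 0.70 and 0.66.

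The 4 genes that fell late were Zfp239, Zfp862, Zfp692 and Zfp362, with log2 differences of -0.48, -0.38, -0.33 and -0.30 and edgeR adjusted p of 0.0399, 0.0428, 0.0423 and 0.0271. Zfp239 stood at 3.001, 2.56, 1.88 and 1.49 RPKM from 1 to 6 h in naive and at 2.71, 1.98, 1.77 and 1.85 RPKM in pretreated cells, and each late value was below each early one. Without the filter on low levels the calls of Zfp239, Zfp862 and Zfp692 were lost (edgeR adjusted p = 0.0548, 0.0616 and 0.0773).

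The late count depends on single libraries. Late rises were 1.51% of Zfp genes and 0.879% of all genes without the naive 1 h library, and 0.503% and 0.255% without the naive 2 h library. Without the naive 4 h library they were 1.01% and 1.31%, and without the naive 6 h library 0.503% and 1.08%, so that the Zfp share was below that of all genes in these 2 fits. Without the pretreated 2 h library they were 4.52% and 3.38%, and without the pretreated 4 h library 6.53% and 5.68%. Leaving out the naive 2 h library brought the calls over all 12168 genes to 31 rises and 20 falls. With limma on log2(RPKM + 1), a scale on which the median of all genes was -0.05, 25 Zfp genes rose (12.6%) and 9 fell (4.52%), against 8.05% and 13.2% of all genes. In simulated counts 14.3% of the calls of this comparison were false, above the nominal share, and 33.3% of 60 genes changed 1.5-fold were recovered. Far fewer genes were changed there than were called in the data (1185 rises and 1155 falls), so these shares need not hold here.

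The times at which the Zfp genes were lowest and highest differed from those of the other genes. In naive cells 81 of 199 (40.7%) had their lowest level at 1 h, against 18.3% of all tested genes. In pretreated cells the lowest level was at 2 h for 81 (40.7%), against 22.5%. The highest level was at 6 h for 33.2% in naive and 35.2% in pretreated cells, against 19.9% and 17.9% of all genes. It was at 0 h for 33.7% in naive and 26.6% in pretreated cells, against 27.6% and 32.5% of all genes. Each time had 1 library per arm, so a time and its library cannot be told apart.

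**Figure D4:**
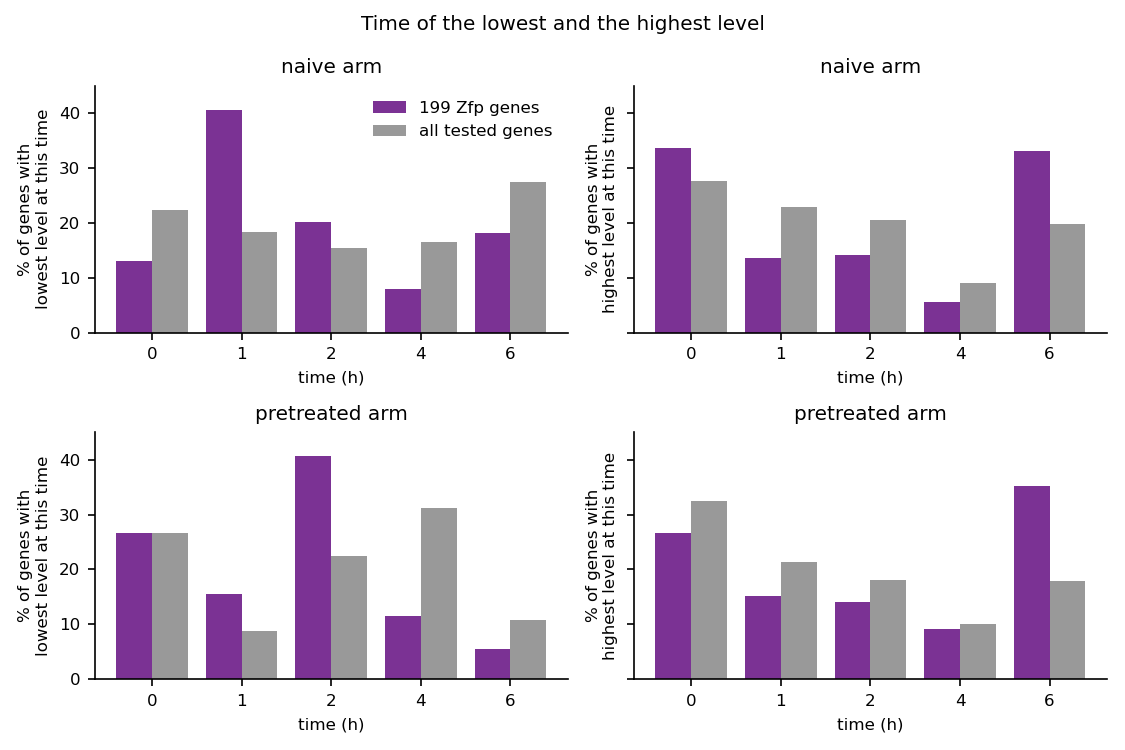
Share of genes (%) whose lowest (left) or highest (right) level of the arm was at each time in hours, for the 199 Zfp genes (purple) and all 12168 tested genes (grey), with the naive arm above and the pretreated arm below. The tallest purple bars are the lowest level at 1 h in naive and at 2 h in pretreated cells, both 40.7%.

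At 1 h against 0 h over both arms, edgeR called 0 Zfp genes higher and 0 lower, as it did for all tested genes (0% in each direction). In simulated counts this test recovered 5.77% of genes changed 1.5-fold and 60.4% of those changed 2-fold, with 8.86% of its calls false. Early changes of such size can therefore have been missed. At an unadjusted p under 0.05, 7 Zfp genes were higher (3.52%) and 20 lower (10.1%), against 6.25% and 5.11% of all tested genes, and the smallest adjusted p was 0.254 for Zfp553. DESeq2 called 2 higher (1.01%) and 4 lower (2.01%), against 1.38% and 0.559% of all tested genes, and limma called 0 Zfp genes. In the naive arm alone, 71.9% of the Zfp genes were lower at 1 h than at 0 h, against 51.3% of all genes, and in the pretreated arm 50.8%, against 48.7%. The median log2 difference was -0.13 in naive and -0.003 in pretreated cells.

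Single libraries were compared on log2(RPKM + 1), which understates the differences of low genes. On this scale 1 Zfp gene was 2-fold or more higher in the naive 1 h library than at 0 h and 0 were 2-fold lower, while 2.02% and 0.181% of all tested genes were. By the ratio of RPKM itself, a measure added after seeing the data, Zfp763 and Zfp677 were also 2-fold lower (all tested genes: 3.82% higher and 0.764% lower). The 1 gene that was 2-fold higher was Zfp36. It encodes tristetraprolin, a protein that binds AU-rich elements of cytokine mRNAs and speeds their decay. Zfp36, on chromosome 7 at 28376784 to 28379228, stood at 20.7, 51.9, 22.4, 28.5 and 23.3 RPKM in naive cells. In pretreated cells it stood at 18.02, 22.4, 30.5, 32.0 and 23.7 RPKM, without a high 1 h library. It passed in none of the tests over both arms (2 to 6 h against 0 h: log2 difference 0.54, SE 0.294, edgeR adjusted p = 0.178). Among the next largest naive 1 h differences, Zfp217, a transcriptional corepressor, stood at 4.13 and 6.56 RPKM at 0 and 1 h in naive cells and at 3.98 and 5.95 RPKM in pretreated cells. The lowest ratio belonged to the KRAB gene Zfp763, with 2.78 and 1.24 RPKM in naive but 2.21 and 2.52 RPKM in pretreated cells. For neither of these genes is there a second library at that arm and time.

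Few Zfp genes differed between the arms. Over the 5 times, 0 Zfp genes were called higher and 1 lower in pretreated cells (0.503%), against 0.386% and 0.879% of all tested genes. This gene was Zfp704, a zinc finger protein of the same family as Zfp395. It stood at 3.87, 3.42, 5.08, 4.50 and 3.37 RPKM in naive and at 3.04, 2.92, 3.26, 2.95 and 2.66 RPKM in pretreated cells. It was lower in pretreated cells at each of the 5 times, and no naive value was as low as the highest pretreated one. The log2 difference was -0.45 (SE 0.0722, edgeR adjusted p = 0.0441). With limma, or without any 1 library, the call was lost. At an unadjusted p under 0.05, 11 Zfp genes were higher (5.53%) and 12 lower (6.03%), against 9.62% and 12.2% of all tested genes.

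Before restimulation, 0 Zfp genes were 2-fold apart between the pretreated and the naive 0 h library in either direction, on log2(RPKM + 1) or by the ratio of RPKM, while on the first scale 2.56% of all tested genes were higher and 0.838% lower in pretreated cells. On log2(RPKM + 1) the largest differences were those of Zfp259, which encodes the zinc finger protein ZPR1, with 9.31 RPKM (naive) and 14.9 RPKM (pretreated), and of Zfp449 with 4.53 and 2.73 RPKM. By the ratio of RPKM the highest was that of Zfp296, with 1.06 and 1.93 RPKM, and the lowest that of Zfp867, with 2.99 and 1.71 RPKM. The median log2 difference was -0.06 for the Zfp genes and 0.00 for all genes. At 1 h, Zfp296 was 2-fold higher (1.91 and 5.46 RPKM) and Zfp36 2-fold lower (51.9 and 22.4 RPKM) in pretreated than in naive cells, against 1.55% and 0.814% of all tested genes on log2(RPKM + 1). On that scale 0 Zfp genes were 2-fold apart between the arms at 2, 4 and 6 h. By the ratio of RPKM, Zfp763 and Zfp873 were also 2-fold higher at 1 h (all tested genes: 2.98% higher and 1.32% lower). By the same ratio Zfp296 was 2-fold higher and Zfp9 2-fold lower at 2 h (all tested genes: 3.08% higher and 2.34% lower).

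In the naive arm at 6 h, on log2(RPKM + 1), 5 Zfp genes (Zfp281, Zfp296, Zfp324, Zfp820 and Zfp943) were 2-fold or more higher than at 0 h and 2 (Zfp395 and Zfp703) were 2-fold lower, against 6.2% and 3.7% of all tested genes. In the pretreated arm 0 were 2-fold apart at 6 h on this scale, against 3.15% and 0.616% of all tested genes. These counts depend on the pseudocount. By the ratio of RPKM 11 Zfp genes were 2-fold higher and 3 lower in the naive arm (8.39% and 6.56% of all tested genes), and 8 were higher and 0 lower in the pretreated arm (4.87% and 1.6%). The difference in induction itself was tested with a term for arm by stimulation. By edgeR 0 Zfp genes passed in either direction, as did 0% of all tested genes. At an unadjusted p under 0.05 the change was higher in pretreated cells for 5 Zfp genes (2.51%) and lower for 3 (1.51%), against 1.79% and 4.29% of all tested genes, and DESeq2 and limma called 0 Zfp genes. In simulated counts this test recovered 1.69% of genes whose change differed 2-fold between arms and 61.7% of those that differed 4-fold, so differences of 2-fold were rarely detectable in this design. The smallest adjusted p was 0.653, for Zfp1, which stood at 1.59 RPKM in the naive 0 h library and between 2.44 and 3.16 RPKM in all other libraries.

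The Zfp genes lay unevenly over the genome. Chromosome 7 held 39 of them (19.6%, against 7.13% of tested genes) and chromosome 17 held 28 (14.1%, against 5.25%). A stretch of 1.86 megabases of chromosome 17 (mm10, 21008941 to 22867134) held 12 KRAB genes of the group. It was picked out after its values were seen, so its counts are a description. Of the 12, 9 rose at 2 to 6 h against 0 h and 9 rose at 4 and 6 h against 1 and 2 h, and 0 fell in either comparison (all tested genes: 19.9% rose in the former and 9.74% in the latter), with median log2 differences of 0.71 and 0.64. The other 70 KRAB genes had 16 rises and 7 falls (median 0.22) and 12 rises and 0 falls (median 0.28). Between its ends lay 5 further tested Zfp genes under the floor, of which 2 and 3 rose in the 2 comparisons, and 4 other tested genes, of which 3 and 3 rose.

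Zfp943, at 21962559 to 21994366 on the plus strand, stood at 2.59, 2.47, 4.53, 4.72 and 6.98 RPKM in naive and at 2.79, 3.14, 4.18, 4.86 and 5.64 RPKM in pretreated cells. Its neighbour Zfp942, read from the opposite strand, stood at 3.66, 2.80, 5.09, 5.16 and 7.02 RPKM and at 3.86, 3.95, 4.82, 5.49 and 7.27 RPKM. Both were highest at 6 h in each arm. A similar pair is Zfp944, with 2.89, 3.02, 4.32, 4.51 and 5.41 RPKM in naive and 2.99, 3.33, 3.71, 4.24 and 5.55 RPKM in pretreated cells, and Zfp758, with 1.80, 1.39, 2.28, 2.87 and 4.18 RPKM and 1.28, 1.73, 2.66, 2.69 and 3.32 RPKM. All 4 genes rose in both comparisons. Zfp948, in the same stretch, passed in neither and stood between 3.35 and 5.50 RPKM in the 10 libraries.

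**Figure D5:**
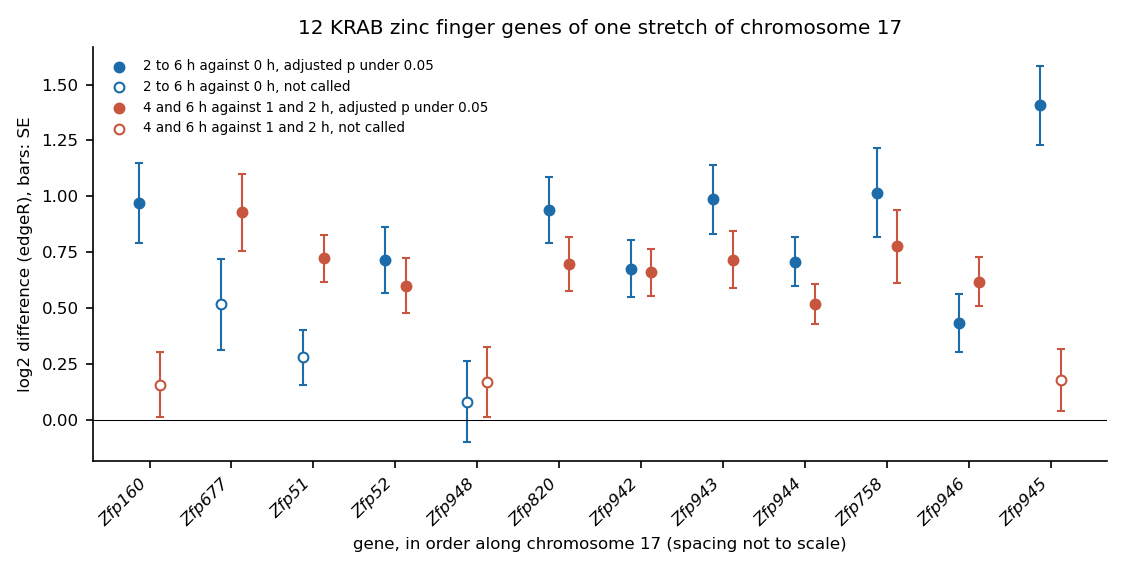
Log2 difference from the edgeR fit (points) with its SE (bars) for 12 KRAB zinc finger genes in their order along chromosome 17, for 2 to 6 h against 0 h (blue) and 4 and 6 h against 1 and 2 h (red). Filled points had an adjusted p under 0.05, which were 9 of 12 in each comparison.

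The starts of each pair face away from each other across a short gap, and the gaps are printed because the pairs share their sequence. The gap of Zfp942 and Zfp943 spans chr17:21962465-21962558 and that of Zfp944 and Zfp758 spans chr17:22361401-22361452, both from RefSeq promoter windows of GRCm38.p6, plus strand. Capitals mark the bases that both gaps hold.
Zfp942 and Zfp943: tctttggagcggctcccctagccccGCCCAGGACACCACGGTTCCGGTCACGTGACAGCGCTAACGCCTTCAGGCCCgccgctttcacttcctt
Zfp944 and Zfp758: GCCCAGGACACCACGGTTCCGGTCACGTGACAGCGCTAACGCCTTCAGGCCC
All 52 bases of the shorter gap stand unchanged in the longer one of 94 bases. Among 32851 windows of the RefSeq table, 4 held these 52 bases on either strand, and they belonged to these 4 genes. The windows of Zfp943 and Zfp758 had 248 bases in an identical run, which reaches into the transcribed part. Reads of such near-identical copies may have been split between the genes by the authors' counting, so the values of these 4 genes are not independent. The palindrome TCACGTGA inside the shared bases was found in 0.974% of all windows, in 9 of 158 Zfp windows (5.7%), and in 4 of 11 windows of the stretch, which are those of the same 4 genes. The palindrome was searched for after the gaps had been read, and the 9 windows include the 4 in which it was read. The share of 5.7% therefore cannot be set against that of all windows. The other Zfp windows with it were those of Zfp207, Zfp292, Zfp507, Zfp512 and Zfp747.

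The interferon-stimulated response element is a DNA site through which IFN-β induces genes, and its core (GAAA, any 2 bases, GAAA) was searched on both strands of the promoter windows (250 bases before to 50 after the start). A window was given for 158 of the 199 Zfp genes. Of these, 4 (2.53%) held the core, against 3.44% of all 32851 windows. Of the genes that rose at 2 to 6 h against 0 h, 1 of 37 held it, and of those that fell, 0 of 25. A match is a description of letters in this window. The 4 matches are shown with 30 bases each of GRCm38.p6, read along the strand of the gene, with the match in capitals.
Zfp935: tctgtgttccTTTCCGTTTCgagcaggctg
Zfp334: tatggatgcgTTTCCGTTTCgtggggctct
Zfp213: gtgcgacccaGAAAGCGAAAatgagacttc
Zfp169: ttctgcttttTTTCTGTTTCtctaagatct
The match of Zfp935 (chr13:62466786-62466815) starts 7 bases after the start of the gene, and Zfp935 was the gene with a match that rose, from 1.72 and 1.71 RPKM at 0 and 1 h to 3.61, 3.06 and 3.93 RPKM in naive cells and from 1.63 and 2.39 to 2.87, 3.21 and 3.33 RPKM in pretreated cells. All 6 of its later libraries were above all 4 earlier ones. Its log2 difference was 1.06 (SE 0.188, edgeR adjusted p = 0.00764). The matches of Zfp334 (chr2:165388255-165388284), Zfp213 (chr17:23564386-23564415) and Zfp169 (chr13:48513633-48513662) lie before the start.

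Among Zfp genes with known functions, those that act on retroviral and imprinted sequences were looked at first. Zfp809, the KRAB protein that silences murine leukaemia virus in stem cells, stood at 6.01, 4.97, 6.96, 7.57 and 8.48 RPKM in naive and at 6.36, 6.54, 7.17, 8.43 and 9.26 RPKM in pretreated cells. It was highest at 6 h in both arms and rose in both comparisons (log2 differences 0.43 and 0.47, edgeR adjusted p = 0.0211 and 0.0204). Zfp445, a KRAB protein that keeps imprints, stood at 8.54, 7.73, 11.6, 10.9 and 11.1 RPKM in naive and at 8.22, 11.3, 11.8, 11.1 and 11.3 RPKM in pretreated cells, and rose at 2 to 6 h against 0 h (0.50, adjusted p = 0.0197). Zfp57, its partner in imprint maintenance, stood at 5.50, 7.12, 6.43, 4.996 and 4.27 RPKM and at 5.89, 8.04, 5.74, 5.84 and 5.53 RPKM, highest at 1 h in both arms, and passed in neither comparison (0.00 and -0.34, edgeR adjusted p = 0.997 and 0.0546), though its late difference passed with DESeq2 and limma (adjusted p = 0.0183 and 0.0337).

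Of the promoter-binding activators and corepressors, Zfp143 and Zfp687 rose late, by log2 differences of 0.32 and 0.26, and with limma both calls were lost (adjusted p = 0.102 and 0.0844 at a pseudocount of 1). Zfp467, a regulator of the choice between fat and bone cell fates, stood at 6.36 and 5.91 RPKM at 1 and 2 h in naive and at 7.92 and 7.73 RPKM in pretreated cells, and its rise to 8.94, 8.88, 8.62 and 8.85 RPKM at the late times passed (0.41, edgeR adjusted p = 0.0386, limma 0.0527). Zfp131 rose at 2 to 6 h against 0 h by a log2 difference of 0.67. Zfp148, a binder of GC-rich promoters, and Zfp521 passed in neither, with log2 differences of 0.19 and 0.02 against 0 h.

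The partners of the KRAB box were followed with 22 tested genes of the Trim28 pathway, a list written with results of these data known. At 2 to 6 h against 0 h, 5 rose and 7 fell, and at 4 and 6 h against 1 and 2 h, 2 rose and 4 fell. The shares of all tested genes were 19.9% and 20% in the former and 9.74% and 9.49% in the latter comparison. Trim28 itself stood at 115, 113, 96.5, 86.4 and 79.7 RPKM in naive and at 111, 94.1, 93.7, 76.4 and 77.3 RPKM in pretreated cells, lower at 4 and 6 h than in any earlier library, and fell (log2 difference -0.35, SE 0.0848, edgeR adjusted p = 0.0186). Setdb1, the methyltransferase that Trim28 brings to its sites, stood between 14.1 and 19.0 RPKM and did not pass (log2 difference -0.19, adjusted p = 0.0964). Other genes that fell were Uhrf1, Dnmt1, Suv39h1 and Chd3, which act in DNA methylation, histone methylation and chromatin remodelling, by 0.91, 0.64, 0.62 and 0.56. Among the risers were Daxx, an H3.3 chaperone, and Morc3, a nuclear body ATPase, with log2 differences of 2.52 and 1.06. Daxx went from 17.8 RPKM at 0 h to 53.5, 113, 136 and 137 RPKM in naive cells and from 30.1 to 78.5, 173, 115 and 98.7 RPKM in pretreated cells.

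Other zinc finger families were counted by symbol among the tested genes, with the same floor of a mean of 2 RPKM. Of all tested genes 19.9% rose and 20% fell against 0 h, and 9.74% rose and 9.49% fell late. Of 32 Zbtb genes, transcription factors with a BTB domain, 5 rose and 11 fell against 0 h, and 8 rose and 2 fell late. Of 11 Zkscan and Zscan genes, with a SCAN domain, 4 rose and 3 fell, and 3 rose and 0 fell late. Of 12 Zc3h genes, many of them RNA-binding, 4 rose and 4 fell, and 1 rose and 1 fell late. Of 16 Zdhhc genes, which encode palmitoyl transferases, 5 rose and 1 fell, and 1 rose and 1 fell late. Of 11 Klf genes 2 rose and 2 fell, and 1 rose and 0 fell late. Of 17 Zfp genes whose symbol carries a suffix 2 rose and 3 fell, and 6 rose and 0 fell late. No difference between these families and the Zfp genes was tested.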

How the data were processed

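Total RNA of 10 MEF libraries was sequenced, and Bowtie, TopHat, Cufflinks 1.2.1 and the build mm10 are named, without role or order, per the submitters' processing notes. The table deposited by the authors holds, per the file headers, tag counts and RPKM for each RefSeq transcript. The counts were deposited unnormalised, while the sources used here give neither the counting tool, nor the use of strand, nor the treatment of multiply aligned reads. In 10639 transcripts above 5 RPKM, RPKM equalled the count times a library and a transcript factor within 0.000167 on the log2 scale. Of 30646 rows, 15 named no gene (0.0157% to 0.0193% of counts) and were left out. Transcript starts were read as 0-based and are given 1-based.

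Counts were tested with edgeR 4.0.16 (quasi-likelihood, TMM scaling) in a model of time point and arm with 4 residual degrees of freedom, or 3 with arm by stimulation. Two-sided p-values were adjusted (Benjamini-Hochberg, threshold 0.05) over the 12168 genes that reached 1 RPKM in 2 or more libraries. SE is the log2 difference over the root of F. Single libraries were compared on log2(RPKM + 1), which understates the change of low genes, at a fold of 2. The fits were tested on simulated counts of 12168 genes. Per comparison, 39 to 60 genes were changed at each fold (1.25, 1.5, 2 and 4). Far more genes were called in the data against 0 h and late, so the simulated shares need not hold there. False calls were 4% of calls at 2 to 6 h against 0 h, where 82.7% of 2-fold changes were recovered, 14.3% at late against early times, and 8.21% between the arms. Alternatives were DESeq2 1.42.0, limma 3.58.1, other scaling, filters and pseudocounts, summed transcripts and leaving out each library.

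Protein classes had been planned from RefSeq proteins. They were read instead from the longest reading frame of GENCODE M21 transcripts with Biopython, and the frame had the annotated coding length in 191 of 198 genes. Zfp symbols with 1 transcript at several loci (Zfp781) have no coordinates here. The genes named were the 12 highest, the 8 largest rises and falls called in each test, the 6 largest rises and falls of 3 single-library comparisons, the 6 widest and narrowest ranges, genes at the floor and 31 genes with a known role. Genes of a protein class, a motif match or the chromosome 17 stretch are named besides. The members and all lists were chosen with earlier results of these data known. Genes similar in pattern were to be sought only if the most variable gene was called in no test, so none were.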

Additional observations from a re-analysis of the deposited data

Results flagged for a closer look

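Among the 79 Zfp genes named by the rules above, 2 had every naive library after 0 h move one way and every pretreated library the other. Only these named genes were scanned, and others had the same pattern, Zfp37, Zfp212 and Zfp330 among them. Zfp449 was below its 0 h level at all 4 later times in naive cells (log2 differences of -0.601 to -0.246) and above it at all 4 in pretreated cells (0.131 to 0.278). The arm by stimulation difference was 0.732 and did not pass edgeR's test (adjusted p = 0.675). Its level at 0 h was 4.53 RPKM (naive) and 2.73 RPKM (pretreated), while its later levels lay between 2.64 and 3.66 RPKM in both arms. Zfp259 was above its 0 h level in naive (0.028 to 0.223) and below it in pretreated cells (-0.703 to -0.233), with a difference of -0.57 that did not pass (edgeR adjusted p = 0.732). Both contrasts share the single 0 h library of each arm with all 4 later times.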

How the results depend on the processing

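No paired analysis was possible because the labels give no replicate numbers, though the model compares the arms within each time. Changes of direction were checked only in the named genes that had been called. These were 33 against 0 h, 19 late and 1 between the arms, and 0 of them reversed in any alternative. Leaving out 1 library leaves 3 residual degrees of freedom or fewer. The share of Zfp genes that rose against 0 h then ranged from 0 to 25.1% and that which fell from 0 to 19.1%. Over all tested genes the same ranges were 0.0411% to 20.3% and 0.0247% to 20.7%. Late rises ranged from 0.503% to 25.1% and late falls from 0 to 2.01% of Zfp genes, against 0.255% to 10.8% and 0.164% to 11.4% of all tested genes. For KRAB genes the ranges were 0 to 36.6% and 0 to 8.54% against 0 h, and 0 to 43.9% for late rises. Without KRAB they were 0 to 17.2% and 0 to 28.4% against 0 h, and 0.862% to 12.1% and 0 to 3.45% late. The share of Zfp genes lower in pretreated cells ranged from 0 to 0%, against 0.0164% to 1.12% of all tested genes. The KRAB median less that of all genes stayed between 0.193 and 0.344 against 0 h and between 0.212 and 0.374 late in these fits.

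With DESeq2, 0.503% of Zfp genes were higher and 2.01% lower in pretreated cells, against 4.73% and 6.53% of all tested genes. At 1 h 1.01% were higher and 2.01% lower, against 1.38% and 0.559%. Late falls were 4.52% of Zfp genes, 2.44% of KRAB genes and 5.17% of those without KRAB, against 14.2% of all tested genes. Late rises were 39.0% of KRAB genes, against 15.4% of all tested genes. With limma at either pseudocount, 0% were lower in pretreated cells, 4.52% fell late, 2.44% of KRAB genes fell late, and without KRAB 5.17% rose and 5.17% fell late. Over all tested genes 8.05% rose and 13.2% fell late at a pseudocount of 1, and 7.31% and 12.8% at 0.1. With no filter, 0.503% fell late, 3.66% of KRAB genes fell against 0 h, and 0.862% without KRAB fell late. Of all genes in that fit 4.16% fell late and 10.9% fell against 0 h. The median of all genes against 0 h was then 0.11 and the Zfp median less this was -0.052, against 0.056. At 5 RPKM or more, 0% were lower in pretreated cells, 5.56% of KRAB genes fell against 0 h and 11.1% rose late. Under 5 RPKM, a split added after seeing the data, 6.67% without KRAB rose late. In single libraries, a pseudocount of 0.1 gave 9 naive and 4 pretreated genes 2-fold higher at 6 h, and TMM scaling left 1 naive gene lower. The ratio of RPKM with no pseudocount, added after seeing the data, gave 11 and 8. A fold of 1.5 gave 22 higher and 20 lower in naive and 19 higher and 7 lower in pretreated cells, and 1 higher in pretreated cells at 0 h. Shares over all tested genes were not counted for the pseudocount of 0.1, the TMM scaling or the fold of 1.5. Those counts therefore cannot be set against a background. The cause of these changes was not tested. The lowest count of a Zfp gene was 152, and each arm and time had 1 library.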
